A study of Mus musculus with 2 samples.

Results

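Sirtuins are enzymes that remove acetyl and other acyl groups from lysines and use up NAD+ in each cycle, so that their activity follows the NAD+ supply of the cell. Mammals carry 7 sirtuin genes, Sirt1 to Sirt7. Sirt1, Sirt6 and Sirt7 encode mainly nuclear enzymes, Sirt2 encodes a mainly cytosolic enzyme and Sirt3, Sirt4 and Sirt5 encode mitochondrial enzymes. They are best known in ageing for links to DNA repair, chromatin silencing, mitochondrial metabolism and caloric restriction. All 7 genes were read from an Agilent mouse expression array by the gene name in the deposited files, and every probe of each was taken, which gave 18 of 56605 probes and 7 of 37003 genes.

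Epithelial cells were isolated from the submandibular glands, a pair of major salivary glands. The female C57BL/6 mice (C57BL/6N in the study's methods) were either 9 weeks old (young) or 24 months old (aged), and the labels name no treatment for either age. The cells were selected with magnetic beads against EpCAM, an adhesion molecule of epithelial cells. Each age is represented by 1 mouse and 1 array, and both arrays lay on the same slide. By the study's methods the young mice came from a commercial breeder and the aged mice from the animal facility of the institute, so age and origin cannot be told apart. A single array for each age allows no test, and every difference below is between those 2 arrays only.

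Signals are fluorescence intensities after subtraction of background by the scanner software. Log2 levels are relative to the 75th percentile of each array, 256 (young) or 198 (aged). A difference is the aged minus the young log2 level of the same probe, its error (±) is the error that the software gives for the pair of spots, and a 2-fold difference, the size used in the study's methods, was the threshold. Where probes of a gene differed in brightness, the brightest stood for the gene. For the probes that stood for the 7 sirtuin genes the error was nearly constant, from 0.20 (Sirt7) to 0.21 (Sirt4). It thus acts as a nearly fixed cutoff for them and says nothing of the spread between mice. A probe was read only where the software marked it as well above background on at least 1 array. That mark was carried by 55.4% of spots at 9 weeks and by 50.8% at 24 months; without it a probe is called near background.

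Most epithelial markers were clear of background, but with no sample of other cells they do not give the purity of the selected cells. Epcam itself stood at 2.79 at 9 weeks and 2.99 at 24 months, and of 10 epithelial markers 9 were measured on both arrays, none of them past 2-fold, with a median difference of 0.07. The remaining one, Krt19, was read on the young array alone and was at least 1.85-fold lower with age. Krt18, a keratin of simple epithelia, was the brightest of them, and the summed level over the list was 532 at 9 weeks and 592 at 24 months, in multiples of the 75th percentile. Markers of other cells were present as well. Of 16 leukocyte markers 11 were measured on both arrays, 5 of them lower with age by 2-fold or more (Lyz2, Adgre1, Cd68, Itgax and Cd79b), where 3.05% of all genes were. A further Itgax probe went the other way, at 0.42. The summed level of the leukocyte list was 199.7 at 9 weeks and 115 at 24 months, and without Lyz2, which carried most of that drop, 107 and 90.2. Itgam was the brightest leukocyte gene on the mean of both arrays, with log2 levels of 5.69 at 9 weeks and 5.64 at 24 months. Cd79a and Cd8a stayed near background at both ages. Cd3g, measured on the young array alone, was at least 2.06-fold lower with age. Of 6 fibroblast markers, Col1a1, Col1a2 and Col3a1 were lower with age by 2-fold or more, and Pdgfra was at least 2.45-fold lower. With such limits counted, 2.53% of all genes read on at least 1 array were 2-fold higher and 5.14% were 2-fold lower. The summed fibroblast level was 18.6 at 9 weeks and 8.70 at 24 months, with Dcn the brightest. The 6 endothelial markers summed to 4.33 and 3.06, with Kdr the brightest and a median difference of -0.56. Several leukocyte and fibroblast markers were thus lower with age, and their part in the sirtuin values was not tested. Fewer cells of a type and less RNA per cell cannot be told apart in such bulk samples.

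No sirtuin gene differed by 2-fold between the ages. All 7 stood clear of background at both ages, and 0 passed the threshold, against 4.56% of all 18745 genes measured on both arrays. The differences ran from -0.37 for Sirt3 to 0.38 for Sirt2 with a median of 0.06. For comparison, the median over all genes was 0.09 and the quartiles over all genes lay at -0.17 and 0.34. Sirt3 lay below the lower quartile and Sirt2 above the upper quartile, whereas the other 5 lay between them. On the aged array 4 sirtuin genes were higher and 3 lower, and 59.9% of all genes were higher. Differences of 3 genes, Sirt2, Sirt3 and Sirt6, were larger than their own error, which held for 57.4% of all genes, and no sirtuin difference reached 2 errors. These calls depend on the scaling. Over 7 scalings Sirt3 exceeded its error in 6, Sirt2 in 5, and Sirt6 and Sirt5 in 3 each. Sirt1 did so in 2, and Sirt4 and Sirt7 in 1 each. Sirt3 exceeded 2 errors in 5 of the scalings. Sirt2 (0.55) and Sirt6 (0.45) exceeded 2 errors in 1, with the array medians as the base.

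**Figure D1:**
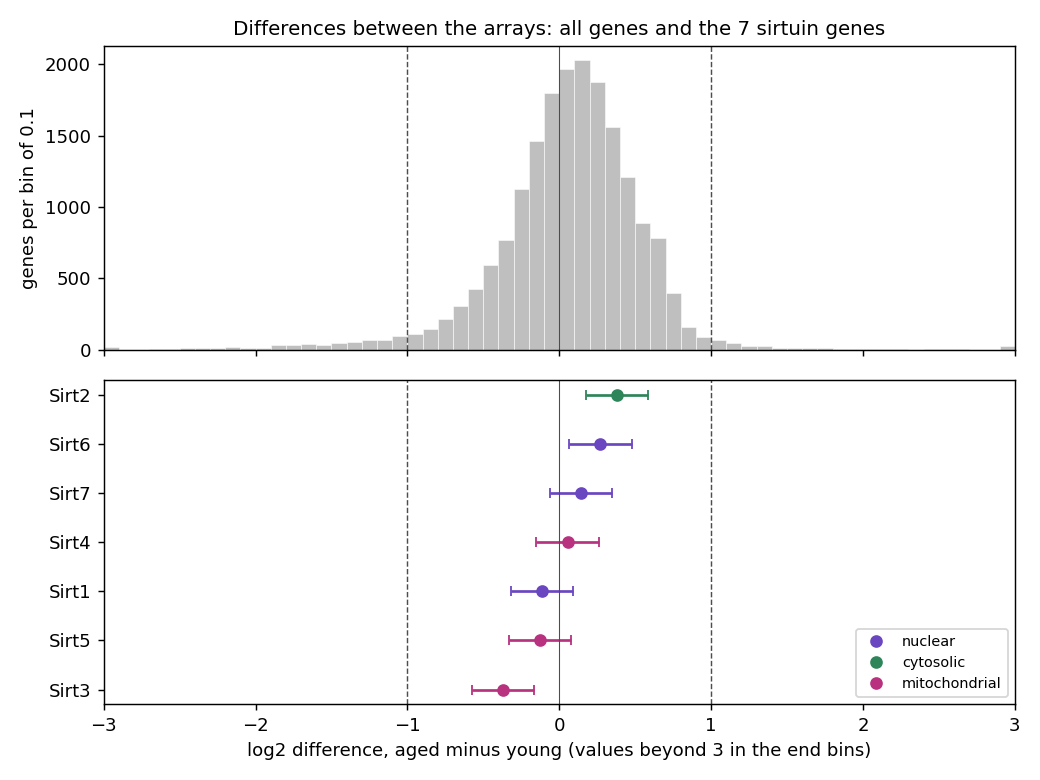
Log2 difference between the aged and the young array, for 18745 genes measured on both arrays (upper panel, genes per bin) and for the 7 sirtuin genes (lower panel, points with the error given by the software, coloured by the compartment of the enzyme). Dashed lines mark 2-fold; all 7 points lie between -0.37 and 0.38, well inside the lines.

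The nuclear enzymes come first. SIRT1 deacetylates p53, FOXO factors and PGC-1alpha. The probe that stood for Sirt1, A_55_P2030428, lies at chr10:62781827-62781886 on the minus strand (positions in the files are on NCBI37, mm9). Its signal was 288 ± 29.0 at 9 weeks and 206 ± 20.8 at 24 months. The log2 levels were 0.17 and 0.06, a difference of -0.11 ± 0.21. The values thus lay within the error of each other after scaling. The other Sirt1 probe, A_55_P2598462, stayed near background at both ages.

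SIRT6 deacetylates histone H3, guards telomeres and represses glycolysis genes. Its probe A_55_P2072468 (chr10:81084531-81084589, minus strand) gave signals of 325 ± 32.6 at 9 weeks and 303 ± 30.5 at 24 months. The log2 level was 0.34 at 9 weeks and 0.61 at 24 months, 0.27 ± 0.21 higher with age. The step was 1.21-fold, beyond its error with this scaling and within it in 4 of 7 scalings. The other Sirt6 probe, A_51_P416215, stayed near background at both ages, so that the value rests on 1 probe.

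SIRT7 resides in the nucleolus and acts on RNA polymerase I. Its brightest probe, A_51_P352264 (chr11:120479736-120479795, minus strand), gave 2019 ± 202 at 9 weeks and 1725 ± 173 at 24 months. The log2 levels were 2.98 and 3.12, a difference of 0.15 ± 0.20. Sirt7 carries 5 probes, more than any other member, and these did not differ in 1 direction. Probes A_55_P2045693 and A_55_P2045697 differed by 0.20 ± 0.21 and 0.19 ± 0.23, close to the brightest. Probe A_55_P2714782, which lists a transcript from Ensembl and none from RefSeq, differed by -0.36 ± 0.27, with signals of 48.7 at 9 weeks and 29.3 at 24 months. Probe A_55_P2714777, also with an Ensembl target only, was well above background on the young array alone (signal 22.9) and lower by at least 1.24-fold with age. The 3 probes that list any RefSeq transcript were thus slightly above 0 and the 2 that list none were below. The split depends on the processing. Normexp is a background correction that here adds an offset of 50 to every signal, which by itself draws differences of dim probes toward 0. With it the 2 probes without RefSeq were at 0.04 (A_55_P2714777) and 0.03 (A_55_P2714782). The brightest probe was at -0.05 with quantile normalization and -0.12 with loess. The spike-in base, which shifts all probes alike, put all 5 below 0.

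SIRT2, the mainly cytosolic member, deacetylates alpha-tubulin and also acts on chromatin during mitosis. The brightest Sirt2 probe, A_52_P547447 (chr7:29573375-29573434, plus strand), gave 1005 ± 101 at 9 weeks and 1009 ± 101 at 24 months. These raw signals were nearly equal, and the brightest probes of the other 6 genes all had lower raw signals on the aged array. The log2 level was 1.97 at 9 weeks and 2.35 at 24 months, 0.38 ± 0.20 or 1.30-fold higher with age. With this scaling and the brightest probes it was the largest difference above 0 in the family. Sirt6 was higher than Sirt2 with loess (0.18 and 0.17) and with the mean of the kept probes of each gene (0.27 and 0.21). The other Sirt2 probe, A_52_P656024, did not show the 1.30-fold step: its signals of 229 and 182 gave a difference of 0.04 ± 0.21. Its listed interval covers 1626 bases for 60 bases of probe, so that it bridges at least 1 gap in the genome. The probes differed by 0.34 from each other, and the higher Sirt2 value is a reading of 1 of 2 probes.

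Of the mitochondrial genes, Sirt3 and Sirt5 were below 0 and Sirt4 was near 0, and all 3 lay below the median of all genes. SIRT3 is the main deacetylase of mitochondrial enzymes. Its brightest probe, A_55_P2075140 (chr7:148049581-148049640, minus strand), gave 1482 ± 148 at 9 weeks and 887 ± 88.8 at 24 months. The log2 level was 2.53 at 9 weeks and 2.16 at 24 months, a difference of -0.37 ± 0.20 or 1.29-fold lower, and 13.7% of all genes measured on both arrays lay at or below it. The other Sirt3 probe, A_55_P2738307, was dim, with signals of 61.0 and 38.1, and lists an Ensembl transcript only. It differed by -0.31 ± 0.26, 0.06 apart from the brightest. With the normexp background correction the dim probe was at 0.01 and the brightest at -0.42. The offset of 50 in that correction draws a dim probe toward 0, so the comparison cannot show whether the dim probe was lower.

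SIRT4 acts as a lipoamidase and ADP-ribosyltransferase on glutamate and pyruvate metabolism. Its probe A_51_P424641 (chr5:115928163-115928222, minus strand) gave 189.8 ± 19.3 at 9 weeks and 153 ± 15.6 at 24 months. The log2 levels were -0.43 and -0.38, a difference of 0.06 ± 0.21. A dimmer probe, A_55_P2185372, differed by 0.09 ± 0.24, and both values lay within the error of 0. A further Sirt4 probe, A_66_P134658, stayed near background at both ages.

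SIRT5 removes succinyl, malonyl and glutaryl groups. Its probe A_51_P411909 (chr13:43490351-43490410, plus strand) gave 677 ± 67.8 at 9 weeks and 479 ± 48.0 at 24 months. The log2 levels were 1.40 and 1.27, a difference of -0.13 ± 0.20, within the error. The other Sirt5 probe, A_55_P2899223, stayed near background at both ages, and its aged value was a substitute written by the software.

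The sequences below show what the array read for these genes. They are copied from the probe sequences in the files, which are 60 bases long and written 5′ to 3′. The brightest probe of the 3 members with a difference beyond its error is given over a window of 30 bases, with capitals for AATAAA, the polyadenylation signal, where it occurs. The letters AATAAA on the strand of the probe occurred in 2 of 18 sirtuin probes, the brightest of Sirt3 and of Sirt6, and in 9.77% of all probes (13.3% on either strand).
Sirt2 A_52_P547447, window: cagacaacaggctaccccaaaacccctaac
Sirt3 A_55_P2075140, window: ctacaacatcatttcttgcatgaAATAAAc
Sirt6 A_55_P2072468, window: agctcccaatgcAATAAAtacaaaatccct

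In 6 of the 7 genes the brightest probe was also the probe placed furthest toward the 3′ end of the gene by its genome position. The Sirt6 probes list the same first base of the genome, but the interval of A_51_P416215 covers 15 bases of its 60, and within the transcript that both list, the brightest starts at position 1644 and the other at 862. The following probes are given whole, because they differ in place from the brightest probe of the same gene. In Sirt7 A_55_P2045697, capitals mark a match to the codon pattern of the loop of the enzyme that binds NAD+. The pattern was found in 29 of all probes (0.0512%; 0.104% on either strand) and in 1 sirtuin probe. In Sirt4 A_66_P134658, capitals mark a match to a codon pattern for the residues Asn, Val, Asp, Ala, Leu and His in a row. It was found in 1 probe of the whole array, on either strand, which is this one. The motifs did not overlap in any sirtuin probe. Sirt2 A_52_P656024, the probe with the difference near 0, carried none of them. A match is a description of letters and no match says only that they are not in these 60 bases.
Sirt7 A_55_P2045697: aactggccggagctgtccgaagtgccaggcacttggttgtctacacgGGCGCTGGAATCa
Sirt4 A_66_P134658: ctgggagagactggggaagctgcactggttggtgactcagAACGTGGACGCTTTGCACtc
Sirt2 A_52_P656024: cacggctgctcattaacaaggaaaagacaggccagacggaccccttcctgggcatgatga

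Of the 18 probes, 13 stood clear of background at both ages, 1 on the young array alone and 4 on neither. Among the 13, 8 were higher and 5 lower on the aged array, none by 2-fold, against 4.21% of all probes measured on both. Before scaling, 12 of the 13 were lower on the aged array, whose 75th percentile was lower by 0.37 on the log2 scale. Probes of a gene are not replicates. Over the 5653 genes of the array with several probes on both arrays, the range between probes of a gene had a median of 0.25 and exceeded 0.5 in 24.6%. Sirt7 with 0.56 and Sirt2 with 0.34 lay above that median, and Sirt3 with 0.06 and Sirt4 with 0.03 below it. As a second measure of error, probes printed in 10 spots per array and in the signal range of the sirtuins gave a median SD of 0.12 for the difference of a single spot (24 probes). This covers spot-to-spot error only and not the difference between mice.

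**Figure D2:**
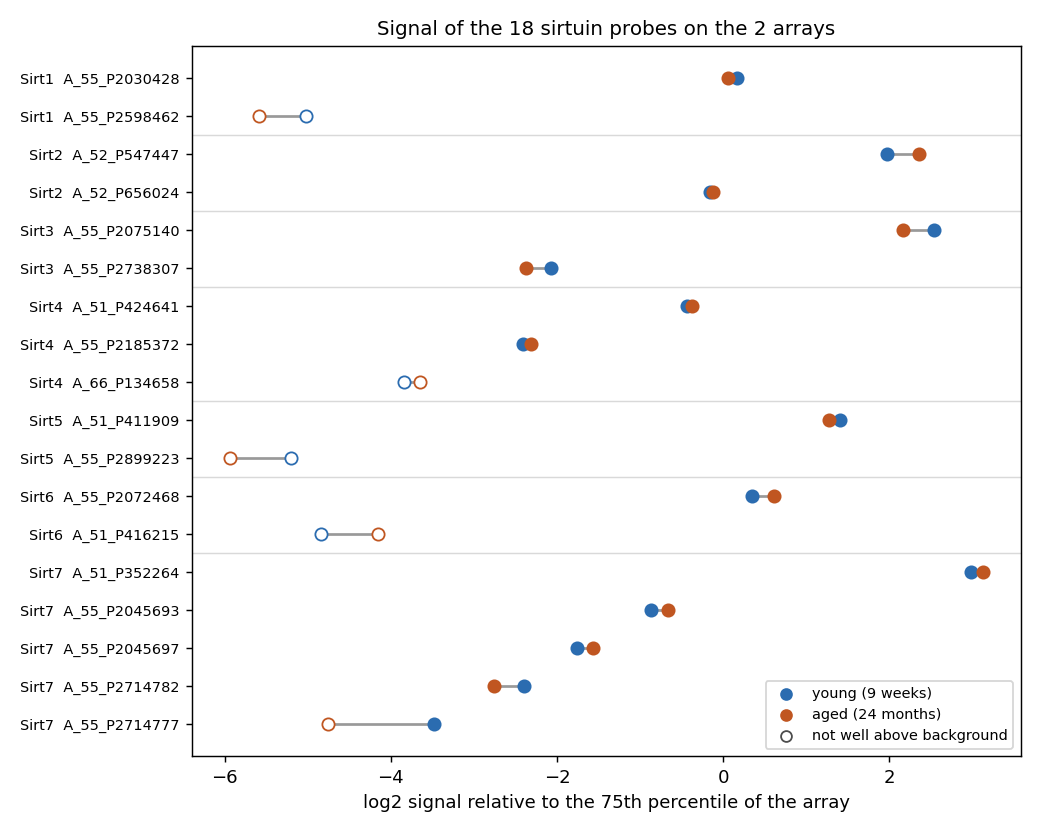
Log2 signal of each of the 18 sirtuin probes over the 75th percentile of the non-control spots, on the young array (blue) and the aged array (orange), with open circles for spots near background. Lines join the same probe and levels of different probes are not comparable; the young and aged points of the brightest probes lie close together, and the widest measured step on both arrays is 0.38.

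By compartment, the nuclear genes had a median difference of 0.15 (-0.11 to 0.27), the cytosolic gene Sirt2 0.38, and the mitochondrial genes a median of -0.13 (-0.37 to 0.06). The nuclear median was below 0 with quantile normalization (-0.05), loess (-0.12), the mean of the kept probes (-0.11) and the spike-in controls (-0.11), and the mitochondrial median was above 0 (0.05) with the array medians as the base. The order followed the compartments only in part, since the mitochondrial Sirt4 stood above the nuclear Sirt1. Differences between genes do not depend on the constant by which an array is scaled, so 21 pairs of sirtuins were compared by the difference of their differences. Of these, 9 exceeded their error, beside 57.3% of all pairs of genes measured on both arrays, and 2 exceeded it 2 times over, beside 28% of all pairs. With quantile normalization 11 pairs and with loess 12 pairs exceeded their error, 2 and 3 of them 2 times over. The difference of Sirt2 was 0.74 ± 0.29 above that of Sirt3, a shift of 1.68-fold. That of Sirt3 minus that of Sirt6 was -0.64 ± 0.29. Both rest on the brightest probes. With the mean of the kept probes of each gene these values were 0.55 ± 0.31 and -0.61 ± 0.31, and 0 of the 21 pairs exceeded its error 2 times over.

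The sign of the smaller differences depended on the scaling. Sirt2 and Sirt6 stayed above 0 and Sirt3 below 0 under every alternative that could change their values (8 of 11 for Sirt2 and Sirt3, and 7 for Sirt6, which has 1 kept probe), Sirt2 between 0.12 and 0.55, Sirt6 between 0.02 and 0.45 and Sirt3 between -0.62 and -0.19 over the scalings. Sirt1, Sirt4, Sirt5 and Sirt7 changed sign under at least 1 alternative, Sirt7 under 4. No sirtuin gene passed 2-fold under any of them, and the largest size was 0.62. The median over all genes itself moved downward by up to 0.26 (-0.26 on the log2 scale), with the spike-in controls as the base, and upward by up to 0.17, with the array medians as the base. Relative to the median of all genes, which takes out a constant shift, 3 of 7 sirtuin genes were higher (Sirt2, Sirt6 and Sirt7). Sirt2 and Sirt6 stayed above that median under all 7 scalings, while Sirt7 lay below it with quantile normalization, loess and normexp, and Sirt4 lay above it with quantile normalization and loess.

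**Figure D3:**
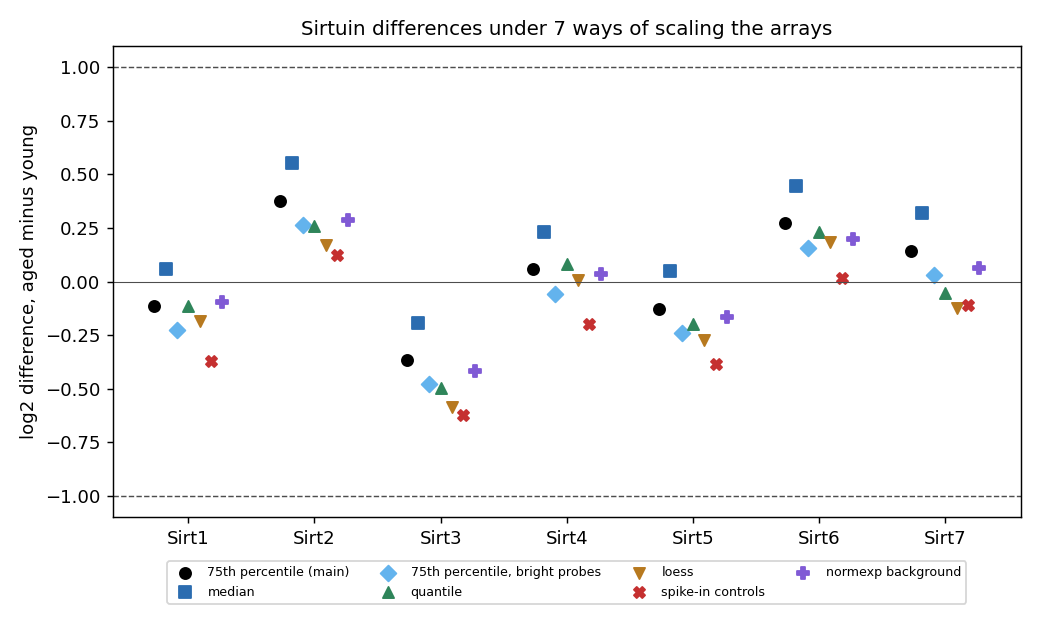
Log2 difference, aged minus young, of each sirtuin gene under the 75th percentile and 6 other ways of scaling or background correction, 1 symbol per way, with dashed lines at 2-fold. Sirt2 and Sirt6 lie above 0 and Sirt3 below 0 in all of them, and Sirt1, Sirt4, Sirt5 and Sirt7 lie on both sides.

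Genes that work around the sirtuins were then read from 10 lists of NAD+ metabolism, regulators, relatives, substrates and target genes, 155 different genes in all. Both arrays gave a value for 141 of these, with 2 higher and 4 lower by 2-fold or more. That is 4.26% and near the 4.56% of all genes (1.52% higher and 3.05% lower), and nothing is read from the total. The sign of a list median near 0 depends on the constant by which the arrays are scaled. Quantile normalization and loess moved some of these medians as well.

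For the NAD+ supply, 13 of 19 synthesis genes were measured on both arrays with a median of 0.05. Nampt, the rate-limiting enzyme of NAD+ salvage, stood at -0.49 at 9 weeks and -0.41 at 24 months, a difference of 0.08 ± 0.21. Of the other bright members, Naprt (0.13), Nadsyn1 (0.26), Nmnat3 (0.24) and the NAD kinase gene Nadk (0.27) were slightly above 0 and the mitochondrial NAD+ carrier gene Slc25a51 (-0.13) slightly below. Kmo, kynurenine monooxygenase on the route from tryptophan to NAD+, was the 1 past 2-fold. Its signals were 63.9 at 9 weeks and 21.1 at 24 months, a difference of -1.23 ± 0.33 or 2.34-fold lower. It was dim on both arrays, and with the normexp background correction and its offset of 50 it was -0.29. Kynu, Qprt, Tdo2, Ido1 and Ido2 of the same route, and Nmrk2, stayed near background at both ages.

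Among other enzymes that use up NAD+, 11 of 12 were measured and 1 was past 2-fold. Bst1 (CD157), an ADP-ribosyl cyclase on the cell surface, gave signals of 70.2 at 9 weeks and 145 at 24 months, a difference of 1.42 ± 0.22 or 2.67-fold higher. It has 1 probe, and was just short of 2-fold (0.95) with normexp and its offset of 50. Parp1, the main poly(ADP-ribose) polymerase of DNA repair, was at 0.03 on both arrays. Parp10 (0.01), Tnks2 (-0.21), Parp9 (-0.33), Parp4 (-0.38) and Parp14 (-0.56) followed. Dimmer probes of some of these disagreed, with 0.94 for Parp9, 0.01 for Parp14 and 0.00 for Parp4. The median of the list was -0.21. It was -0.03 with the array medians as the base, -0.07 with normexp and -0.46 with the spike-in controls. Relative to the median of all genes, 1 of the 11 was higher and 10 were lower. With quantile normalization, loess and normexp 2 of the 11 were higher.

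The zinc-dependent deacetylases, which need no NAD+, served as relatives in enzyme activity. None of the 10 measured of 11 was past 2-fold and their median was 0.01. The brightest were Hdac5 (-0.45), Hdac1 (0.07, with another probe at -0.06), Hdac10 (0.07), Hdac7 (-0.30), Hdac3 (0.31) and Hdac6 (0.01). Their differences ran from -0.51 to 0.55, a range that encloses that of the sirtuins. Its lower end was Hdac4, named here after its value was seen, and another Hdac4 probe was at 0.78. The Hdac2 probe stayed near background at both ages.

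Of the regulators of SIRT1, 13 of 14 were measured, with a median of -0.06. E2f1, a cell cycle transcription factor known to induce SIRT1, was the 1 past 2-fold, with signals of 87.4 at 9 weeks and 20.3 at 24 months and a difference of -1.73 ± 0.31. It has 1 probe, was dim on the aged array and was -0.50 with normexp and its offset of 50. Of 24 nuclear substrates and partners 23 were measured with a median of -0.04. Ppargc1a, which encodes PGC-1alpha, a coactivator for mitochondrial genes and a substrate of SIRT1, was lower past the threshold. Its signals were 1764 at 9 weeks and 633 at 24 months, log2 levels of 2.78 and 1.68 and a difference of -1.11 ± 0.20, or 2.15-fold lower. Its other probe differed by -1.35. Centring on array medians brought the brightest probe to -0.93. The other bright members were Srebf1 (0.70), Nr1h2 (0.17), Foxo1 (0.03), Rela (-0.04) and Hif1a (-0.04). Another Rela probe was at 0.13 and another Hif1a probe at 0.03. The 17 measured of 18 target genes of the SIRT1, FOXO and PGC-1alpha axis held none past 2-fold, ran from -0.70 to 0.69 and had a median of 0.07.

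**Figure D4:**
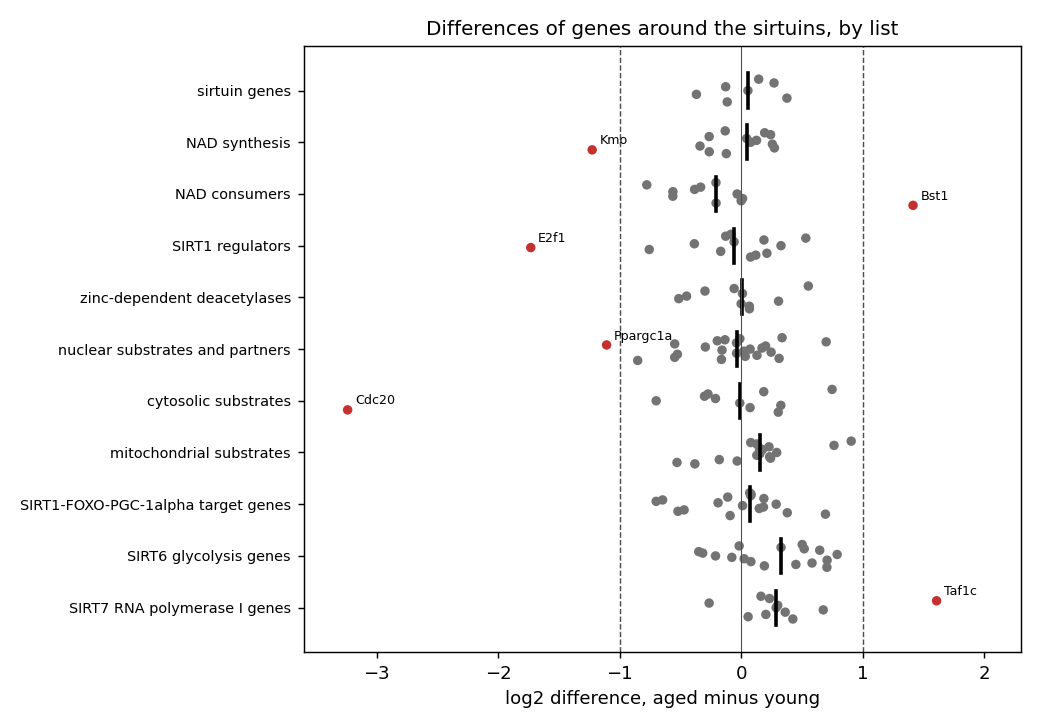
Log2 difference, aged minus young, of genes measured on both arrays, by list, with 1 point per gene, a bar at the median and dashed lines at 2-fold. Red points are the 6 genes past 2-fold (Kmo, Bst1, E2f1, Ppargc1a, Cdc20 and Taf1c), and the 7 sirtuin points lie between -0.37 and 0.38.

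Of 12 cytosolic substrates 11 were measured on both arrays, with a median of -0.01. The median was -0.29 with quantile normalization, -0.27 with loess and -0.27 with the spike-in controls. The brightest were the alpha-tubulins Tuba1c (0.19), Tuba1b (-0.27) and Tuba1a (-0.30), the citrate lyase gene Acly (0.31), the cyclosome activator gene Fzr1 (0.07) and G6pdx (0.33). Another Tuba1b probe was at 0.17 and another Fzr1 probe at -0.04. Cdc20, which activates the anaphase-promoting complex and is deacetylated by SIRT2, had the largest difference of all lists. Its signals were 490.3 at 9 weeks and 40.1 at 24 months, a difference of -3.24 ± 0.24 or 9.44-fold lower. Its other probe differed by -1.72, so that both were past 2-fold and of unequal size.

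Of 19 mitochondrial substrates 17 were measured on both arrays and none was past 2-fold, with a median of 0.15, which was -0.03 with quantile normalization, -0.10 with loess and -0.10 with the spike-in controls. The brightest were Idh2 (0.24), Acss1 (-0.53), Sdha (0.23), Slc25a4 (0.13), Lonp1 (0.23) and Mlycd (0.13). Another Slc25a4 probe was at -0.31. Idh2 and Sdha encode enzymes of the citric acid cycle and Acss1 the mitochondrial acetyl-CoA synthetase activated by SIRT3. Otc stayed near background at both ages.

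For SIRT6, the 17 glycolysis genes were all measured and none was past 2-fold. Their median was 0.33 and 12 were above 0, beside 59.9% of all genes. With examples chosen after their values were seen, Pfkl (0.79), Ldha (0.71), Aldoa (0.71) and Gapdh (0.58) were at the upper end, and Pfkp (-0.35) and Pfkm (-0.32) at the lower. The direction of the list flipped with 2 of the scalings, to a median of -0.07 with loess and -0.03 with quantile normalization, with 7 of 17 above 0 in each. For SIRT7, the 11 genes of RNA polymerase I transcription had a median of 0.29 with 10 above 0, again beside 59.9% of all genes. With loess the median was 0.10, and with the spike-in controls it was 0.03 with 6 above 0. Taf1c, a subunit of the promoter selectivity factor SL1, gave signals of 99.3 at 9 weeks and 234 at 24 months, a difference of 1.61 ± 0.21 or 3.05-fold higher, and was past 2-fold under all 7 scalings. It has 1 probe, so that the scalings all read the same spots. Of the 11, 9 lay above the median of all genes. As a yardstick, 9 reference genes had a median of 0.20 and ran from 0.03 to 0.73.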

How the data were processed

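RNA from each age was labelled with Cy3 and hybridized to an Agilent mouse array. The authors deposited scanner files from Feature Extraction 12.0.3.1, in which the spot intensities are background-subtracted and detrended, and a table of linear intensities in which each array was divided by a constant. Here, log2 of the processed intensity minus log2 of the 75th percentile over 59305 non-control spots was used. Outlier spots (90 young, 93 aged) were left out, and no spot was saturated. Spots of a probe were averaged. For a probe that was dim on 1 array, the fold is a lower limit against the higher of its own value and the lowest signal well above background there (14.1 young, 14.3 aged). Signal over background and 1 array per age limit the precision. RefSeq accessions of 33767 probes matched a gene table on GRCm38.p6, used for names only. All sirtuin genes and probes, list genes past 2-fold and up to 6 further members of the lists on NAD+ enzymes, deacetylases and substrates, taken as the brightest, were named. The members and lists were chosen with earlier results of these data known. R 4.3.3 with limma 3.58.1 (normexp with an offset of 50, loess, quantile) and Python 3.11.15 with pandas 2.3.3 were used. The steps were tested on simulated data.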

Additional observations from a re-analysis of the deposited data

How the results depend on the processing

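With 1 array per age there was no replicate to leave out, and signal over background limits what can be read of the 4 dim sirtuin probes. No paired analysis was possible because there was 1 array per age. Of the 77 values of the 7 sirtuin genes under 11 alternatives, 24 could not change, since 3 alternatives (both filters on dim probes and keeping outlier spots) leave the brightest probe as it is and the mean over probes leaves genes with 1 kept probe. Of the other 53, 42 moved by less than the error of the difference and 11 by more, and none passed 2-fold. The count of 0 sirtuin genes past 2-fold was the same throughout. The median of the nuclear genes (0.15) was -0.12 with loess, -0.11 with arrays set level on spike-in controls and -0.11 with the mean of the kept probes. The median of the mitochondrial genes (-0.13) was -0.38 with the spike-in controls and 0.05 with median centring, and that of all 7 genes (0.06) was -0.20 and 0.23. The count of sirtuin genes above 0 (4) was 2 with the spike-in controls and 6 with median centring. These settings shift all genes alike, and in each 3 sirtuin genes lay above the median of all genes, as in the main setting. Pathway genes at least 2-fold higher were 1 in place of 2 with normexp, and those at least 2-fold lower were 7 with the spike-in controls, 2 with normexp and 7 with the mean of the probes in place of 4. Of all genes, 284 were at least 2-fold higher and 571 lower. The higher count was 464 with median centring, 150.0 with the spike-in controls, 107 with normexp, 1685 with no filter and 689 with the mean of the probes. The lower count was 929 with the spike-in controls, 209 with normexp, 2416 with no filter and 1823 with the mean of the probes. The cause was not tested for these, except that with no filter more genes enter.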
